A study of Mus musculus with 6 samples.

Results

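The genes described here encode the ligands, receptors, Smad proteins, extracellular antagonists and Id target genes of the BMP and TGF-beta pathways. A list of 49 gene symbols defined them, and all 49 were found by symbol among the 56359 rows of the expression table. RNA was taken from C57BL/6 mouse embryos at embryonic day 12, in 3 Tmem216-/- and 3 wild type samples, and the values are TPM, a relative transcript level per gene that is corrected for gene length. The Tmem216 protein sits in the transition zone, the gate at the base of the primary cilium. The labels name the tissue only as embryo. They do not describe the knockout allele, the part of the embryo taken, or whether each sample was 1 animal, so a p-value here measures sample-to-sample spread that may be technical.

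Ligands of the TGF-beta superfamily are secreted dimers that bring type I and type II serine-threonine kinase receptors together at the cell surface. The activated type I receptor phosphorylates receptor Smads, which join Smad4 and act in the nucleus: BMPs signal mainly through Smad1, Smad5 and Smad9, and TGF-betas and activins through Smad2 and Smad3. Secreted proteins such as noggin and chordin hold BMPs away from their receptors, and the inhibitory Smads, Smad6 and Smad7, act as feedback inside the cell. In the mid-gestation embryo the pathway patterns the limb and the dorsal neural tube and acts in heart, cartilage and vessels.

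Tmem216 itself was 2.25, 0.51 and 1.39 TPM in Tmem216-/- samples, against 31.0, 30.7 and 17.4 TPM in wild type samples (replicates 1, 2 and 3). The gene fell, with a log2 fold change of -3.55 (SE 0.34, limma adjusted p = 0.0266), and the groups did not overlap. Its adjusted p was 0.196 without wild type replicate 1, 0.0834 without wild type replicate 2, 0.0551 without wild type replicate 3, 0.0615 without Tmem216-/- replicate 2 and 0.147 without Tmem216-/- replicate 3. Over all genes, 17 of 16411 were called at an adjusted p under 0.05 (0.104%), 16 of them higher in Tmem216-/- (0.0975%) and 1, Tmem216, lower (0.00609%). That balance turned on single samples: 7 genes were called without Tmem216-/- replicate 3, 2 of them higher, and 27 without Tmem216-/- replicate 1, 19 of them higher. Without Tmem216-/- replicate 2, 9 were called, 7 of them higher, and without wild type replicate 2, 2 were called, both higher. Without wild type replicate 1 or wild type replicate 3, 0 genes were called higher (518 and 1287 genes had an unadjusted p under 0.05 in either direction). The sum of 10 heart muscle markers was 846 to 2224 TPM in Tmem216-/- samples and 38.3 to 58.9 TPM in wild type samples. Each of the 10 was called higher with all 6 samples. Those calls were all lost without wild type replicate 1 or wild type replicate 3. Nppb and Mybpc3 reached 1 TPM only in Tmem216-/- samples, so they were tested only through the group where they were high. The marker lists were chosen with earlier results of these data known. The sum of 5 hindlimb and caudal markers was 7.15 to 17.4 TPM in Tmem216-/- and 57.0 to 121 TPM in wild type, and Hoxc11 among them was listed at 0 in 2 Tmem216-/- samples. The sum of 5 forebrain markers was 73.3 to 94.2 TPM in Tmem216-/- and 116 to 132 TPM in wild type. Liver markers summed to 87.6 to 847 TPM in Tmem216-/- and 180 to 2047 TPM in wild type, with wide ranges inside both groups. No marker of the 16 lists was at 0 in all 6 samples. Wild type replicates 3 and 2 stood apart. Replicate 3 was the highest or the lowest of the 6 samples in 62.0% of all tested genes, and replicate 2 in 48.2%. The other samples ranged from 20.0% to 26.4%. In such bulk samples, fewer cells of a type and less RNA per cell cannot be told apart.

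None of the 49 genes passed the test. In limma, fitted to the 16411 genes that reached 1 TPM in 3 or more samples, 0 were called, and 4 had an unadjusted p under 0.05: Bmp10, Bmp4 and Fstl1, higher in Tmem216-/-, and Id4, lower. That is 8.16% of the members, against 4.46% of all tested genes (2.24% higher and 2.22% lower). With robust eBayes, 0 were called and 4 had an unadjusted p under 0.05, as did 723 of 16411 over all genes. That count was 10 of 49 without wild type replicate 2, where it was 1906 of 16411 over all genes. Under the other alternatives it was 2 to 5, with 451 to 1287 over all genes tested. All 49 passed the filter on low values, although Bmp10 did so only through its Tmem216-/- values. In 7 genes the Tmem216-/- and wild type values did not overlap, 14.3% of the members, against 9.57% of all tested genes. Bmp3, Bmp4, Bmp10, Smad6 and Fstl1 lay above wild type in every Tmem216-/- sample, and Inhbb and Id4 lay below. In that upper direction the share was 10.2% of the members against 4.75% of all genes, and in the lower one 4.08% against 4.83%. The member shares of 8.16%, 14.3% and 10.2% all count Bmp10, so they are description only. Genes that passed the filter through 1 group were not removed from the shares of all genes either. These counts turn on single samples: 17 members did not overlap without wild type replicate 2 (32.8% of all genes), 15 without Tmem216-/- replicate 1 (20.5%) and 11 without wild type replicate 3 (23.3%). The median log2 fold change was 0.03 over the members and -0.0077 over all tested genes.

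The genomic sequence in front of 3 of these genes is shown because Bmp10 and Bmp4 had the smallest p-values among the members and Id4 was the Id gene that lay lower in every Tmem216-/- sample. Each run is the 250 bases before the RefSeq start (build GRCm38.p6, the assembly of mm10), read 5′ to 3′ on the strand of the gene. Capitals mark matches, on either strand, to AGATAA, a core bound by GATA factors, or to GGCGCC, a box bound by the BMP Smads.
Bmp10, chr6:87428744-87428993, plus strand: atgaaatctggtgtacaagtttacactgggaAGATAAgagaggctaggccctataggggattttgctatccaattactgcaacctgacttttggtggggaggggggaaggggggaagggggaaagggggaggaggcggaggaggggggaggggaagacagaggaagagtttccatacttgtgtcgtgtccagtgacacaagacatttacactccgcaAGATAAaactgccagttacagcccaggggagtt
Bmp4, chr14:46390670-46390919, minus strand: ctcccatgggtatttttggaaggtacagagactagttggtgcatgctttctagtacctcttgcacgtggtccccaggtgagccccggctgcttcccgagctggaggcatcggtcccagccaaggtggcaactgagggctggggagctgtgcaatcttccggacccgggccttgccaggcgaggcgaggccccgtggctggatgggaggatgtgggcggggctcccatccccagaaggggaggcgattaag
Id4, chr13:48260866-48261115, plus strand: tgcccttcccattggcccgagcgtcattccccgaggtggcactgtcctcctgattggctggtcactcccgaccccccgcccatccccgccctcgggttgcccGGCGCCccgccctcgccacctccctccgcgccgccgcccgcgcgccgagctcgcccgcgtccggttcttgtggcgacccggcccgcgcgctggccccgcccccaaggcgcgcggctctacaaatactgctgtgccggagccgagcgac

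The Bmp10 window held 2 copies of AGATAA, their first bases 219 and 33 bases before the start, and the Id4 window held 1 GGCGCC, 148 bases before it. AGATAA was present in 9.99% and GGCGCC in 9.59% of the 32851 windows of the same length. Searches for CAGAC, the short Smad box (42.2% of windows), and for GACCACCCA, the site of the Hedgehog factors Gli (0.225%), matched none of the 3 windows on either strand, nor did AGATAA or GGCGCC match the Bmp4 window. The Smad6 window was searched as well, matched none of these motifs and is not shown. AGATAA was chosen after the sequences were seen, and a match is a description of letters, not evidence of binding. The RefSeq start of Id4 lies upstream of the start given by the gene annotation used for coordinates. The windows were 52.0% G or C for Bmp10, 63.2% for Bmp4 and 75.6% for Id4, against a median of 52.4%.

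The BMP ligands were the class with the widest differences. All 7 were higher in Tmem216-/- by their mean, with a median log2 fold change of 0.25, and 0 of 7 passed the test. Bmp4, a ligand of limb, ectoderm and mesoderm and the most abundant BMP here (chromosome 14, 46383520 to 46390669 in mm10), was 42.6, 38.3 and 35.1 TPM in Tmem216-/- samples, against 24.0, 20.1 and 26.9 TPM in wild type samples. Every Tmem216-/- value stood above every wild type value, and the gap between the groups was wider than the range of either. The log2 fold change was 0.69 (SE 0.14, 95% interval 0.36 to 1.02, limma adjusted p = 0.310), and a two-sided exact permutation test gave p = 0.1, the lowest value possible with 3 against 3 samples. Over all 14 alternatives it stayed between 0.58 and 0.78, and the adjusted p between 0.233 and 1.0. As background, Bmp4 is expressed in outflow tract and limb as well as ectoderm, and the sum of 5 limb mesenchyme markers was 122 to 156 TPM in Tmem216-/- and 118 to 149 TPM in wild type. Of these 5, 2 (Lhx9 and Tbx5) lay above wild type in every Tmem216-/- sample, and the groups of the others overlapped. The sum of 4 surface ectoderm markers was 50.4 to 79.3 TPM in Tmem216-/- and 91.1 to 118 TPM in wild type, opposite in direction to Bmp4, with 2 of the 4 below wild type in every Tmem216-/- sample. The part of the heart, limb and ectoderm markers in the Bmp4 difference was not tested.

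Bmp10, a ligand made by heart muscle of the trabeculae and needed for its growth (chromosome 6, 87428994 to 87437677), was 1.71, 3.02 and 2.29 TPM in Tmem216-/- samples, against 0.32, 0.52 and 0.03 TPM in wild type samples. The mean was 8.07 times as high in Tmem216-/- (2.34 ± 0.66 TPM in Tmem216-/- and 0.29 ± 0.25 TPM in wild type, SD, n = 3 each), the widest ratio of the 49 genes. Bmp10 passed the filter only through its Tmem216-/- values, so its fit is given as description only. On the log2(TPM + 1) scale, which understates the change of low genes, the fold change was 1.37 (SE 0.24, 95% interval 0.80 to 1.95, limma adjusted p = 0.209). It depended on the pseudocount, at 2.88 with 0.1 and 0.47 with 5, and in all 13 alternatives that kept the gene the adjusted p was 0.187 to 0.796. Like Bmp10, all 10 heart muscle genes were higher in each Tmem216-/- sample. The summed level of these 10 genes was 846, 2224 and 1346 TPM in Tmem216-/- and 48.0, 58.9 and 38.3 TPM in wild type. The 6 samples stood in the same order for that sum and for Bmp10. That order was found in 0.384% of all tested genes and in 1 of the 49 members. The share is description only, because the heart markers were chosen with earlier results of these data known. Bmp10 also entered the tested genes only through the group where it was high. The wild type part of the order rests on Bmp10 values of 0.03 to 0.52 TPM, near the floor. The part of the heart muscle in the Bmp10 difference was not tested.

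**Figure D1:**
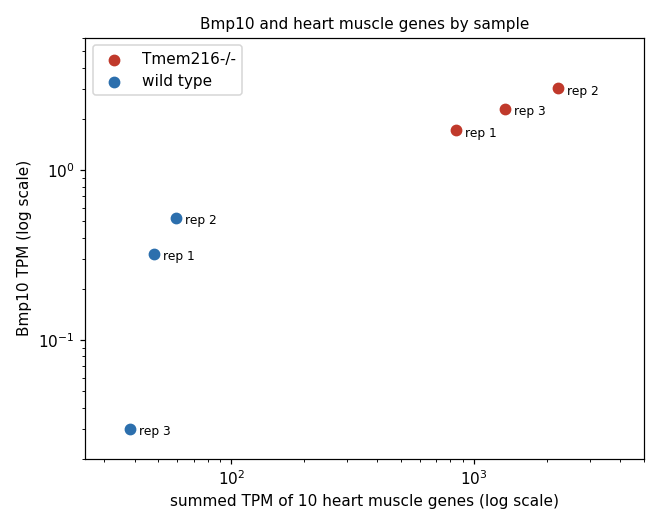
Bmp10 level (y axis, TPM, log scale) against the summed level of 10 heart muscle genes (x axis, TPM, log scale), with 1 point per sample labelled by replicate. The 3 Tmem216-/- samples lie at 846 TPM or more of heart muscle genes and 1.71 TPM or more of Bmp10, and the 3 wild type samples at 58.9 TPM or less and 0.52 TPM or less.

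Bmp3, a family member that antagonises osteogenic BMPs, was low, at 1.48, 1.45 and 1.32 TPM in Tmem216-/- samples, against 1.06, 0.83 and 1.21 TPM in wild type samples. The groups did not overlap, but the nearest values were 1.32 and 1.21 TPM, and the log2 fold change of 0.25 had a 95% interval of -0.16 to 0.66. Bmp7, a ligand of kidney, eye and skeleton, averaged 22.3 ± 2.68 TPM in Tmem216-/- and 22.1 ± 2.90 TPM in wild type (SD, n = 3 each), a log2 fold change of 0.01. Bmp2, a ligand of limb and heart cushions, averaged 3.78 TPM in Tmem216-/- and 3.74 TPM in wild type. Bmp5 and Bmp6 had log2 fold changes of 0.33 and 0.22 with overlapping groups. Bmp5 stayed at 5.23 to 5.41 TPM in Tmem216-/-, while wild type ran from 2.54 to 6.93 TPM, and its log2 fold change was 0.07 without wild type replicate 3 and 0.65 without wild type replicate 2. Bmp6 shares exon sequence with Txndc5, an antisense neighbour at 119 TPM in Tmem216-/- and 117 TPM in wild type, so its level of 3.51 to 4.43 TPM in Tmem216-/- and 2.02 to 3.91 TPM in wild type is uncertain. Summed over the class, BMP ligand transcripts made 71.2 to 81.2 TPM in Tmem216-/- and 53.2 to 61.8 TPM in wild type. Without Bmp4 the sums overlapped, at 36.1 to 42.3 TPM in Tmem216-/- and 33.1 to 37.8 TPM in wild type.

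**Figure D2:**
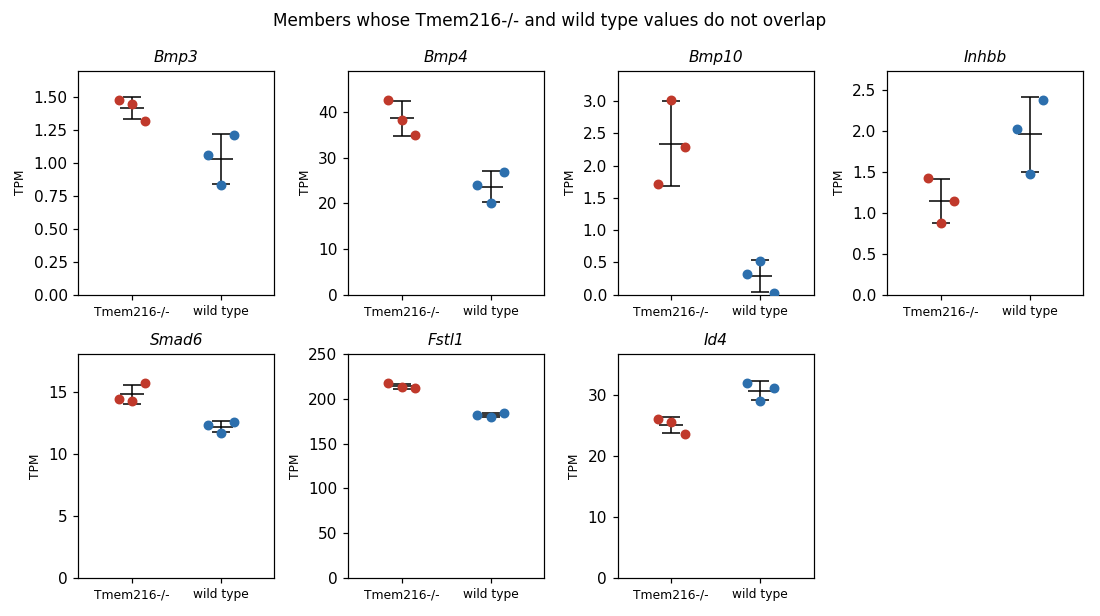
TPM (y axis, from 0) of the 7 members whose groups do not overlap, with 1 point per sample, the mean as a bar and the SD as whiskers (n = 3 per group). Tmem216-/- lies above wild type for Bmp3, Bmp4, Bmp10, Smad6 and Fstl1 and below it for Inhbb and Id4, none of them called in limma.

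No GDF ligand separated the groups (0 of 5, against 9.57% of all tested genes). Gdf6, a ligand of joints and the dorsal retina, was 3.78, 2.95 and 3.17 TPM in Tmem216-/- samples, against 2.63, 3.49 and 1.94 TPM in wild type samples. Gdf7, a ligand of the roof plate of the neural tube, was 3.74, 3.15 and 5.33 TPM in Tmem216-/- and 3.67, 1.94 and 3.96 TPM in wild type. Both overlapped, with log2 fold changes of 0.24 (95% interval -0.26 to 0.74) and 0.29 (-0.35 to 0.94). Gdf11, a regulator of axial patterning and the most abundant GDF, was 25.6, 26.4 and 29.4 TPM in Tmem216-/- and 25.1, 23.4 and 29.5 TPM in wild type, a log2 fold change of 0.06. Gdf5, the joint ligand, averaged 4.39 TPM in Tmem216-/- and 4.40 TPM in wild type. Gdf10 varied most inside Tmem216-/-, from 6.71 to 15.3 TPM, against 8.88 to 11.9 TPM in wild type.

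Among TGF-beta and activin ligands, Inhbb, the activin beta B subunit, lay lower in Tmem216-/-. It was 1.42, 0.88 and 1.14 TPM in Tmem216-/- samples, against 2.03, 1.47 and 2.38 TPM in wild type samples. The nearest values of the groups, 1.42 and 1.47 TPM, differed by little beside the spread, and the log2 fold change was -0.46 (SE 0.20, 95% interval -0.95 to 0.03, limma adjusted p = 0.983). Tgfb2, the most abundant of the TGF-beta ligands here and active in heart cushions and craniofacial mesenchyme, was 24.99, 22.8 and 25.99 TPM in Tmem216-/- and 19.8, 25.9 and 19.4 TPM in wild type. Its groups overlapped through wild type replicate 2, and the log2 fold change was 0.18. Tgfb1 averaged 13.6 TPM in Tmem216-/- and 15.4 TPM in wild type, and Tgfb3, a ligand of palate fusion, 17.1 TPM in Tmem216-/- and 17.3 TPM in wild type. Inha, the inhibin subunit that opposes activin, averaged 7.71 TPM in Tmem216-/- and 8.48 TPM in wild type, and Inhba, the activin beta A subunit, 1.89 TPM in Tmem216-/- and 1.78 TPM in wild type. Only Inhbb of these 6 ligands separated the groups (16.7%, against 9.57% of all tested genes).

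None of the 11 receptors and co-receptors separated the groups, against 9.57% of all tested genes. Their means over the 6 samples ran from 6.52 TPM for Bmpr1b to 51.8 TPM for Tgfbr1. Tgfbr1, the type I TGF-beta receptor, was 50.6, 60.6 and 60.5 TPM in Tmem216-/- samples, against 49.6, 53.0 and 36.7 TPM in wild type samples. The groups overlapped between 50.6 and 53.0 TPM, and the log2 fold change was 0.31 (SE 0.16, 95% interval -0.07 to 0.69). Bmpr1a, the main type I BMP receptor, was 35.9, 39.9 and 39.2 TPM in Tmem216-/- and 33.6, 41.4 and 23.2 TPM in wild type (0.26, interval -0.23 to 0.74). All 3 Tmem216-/- values lay inside the wild type range. Bmpr2, the type II BMP receptor, was 13.9, 14.3 and 13.8 TPM in Tmem216-/-, against 11.4, 15.1 and 8.14 TPM in wild type, and Acvr2a, a type II activin receptor, was 13.03, 15.2 and 12.8 TPM in Tmem216-/-, against 11.8, 15.6 and 7.84 TPM in wild type. In both, wild type spanned a wider range than Tmem216-/-. Over all tested genes, the wild type SD of log2(TPM + 1) was the larger in 72.9%. Wild type replicate 3 weighed on these receptors: without it the log2 fold change was 0.15 for Tgfbr1, 0.04 for Bmpr1a, 0.09 for Bmpr2 and 0.01 for Acvr2a. Without wild type replicate 2 the log2 fold changes of the same genes were 0.41, 0.44, 0.50 and 0.46. Acvr2a shares exon sequence with the antisense gene Orc4, which was at 40.9 TPM in Tmem216-/- and 40.5 TPM in wild type. Acvr2b, the most abundant type II receptor, was 33.8, 33.4 and 33.5 TPM in Tmem216-/- and 31.9, 28.1 and 39.3 TPM in wild type.

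The other receptors gave log2 fold changes between -0.18 and 0.18. Acvr1 and Acvr1b, type I receptors for BMPs and for activins, averaged 20.5 and 26.1 TPM in Tmem216-/- and 23.4 and 27.9 TPM in wild type. Acvrl1, the type I receptor of endothelium, averaged 9.10 TPM in Tmem216-/- and 9.07 TPM in wild type, and Bmpr1b, the receptor of cartilage condensations, 6.95 TPM in Tmem216-/- and 6.08 TPM in wild type. Tgfbr2, the type II TGF-beta receptor, averaged 13.9 TPM in Tmem216-/- and 13.5 TPM in wild type, and the co-receptor Tgfbr3 8.80 TPM in Tmem216-/- and 7.78 TPM in wild type. In 7 of the 11 receptors all Tmem216-/- values fell inside the wild type range, against 41.1% of all tested genes.

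Wild type replicate 3 held the lowest value of the 6 samples for Tgfbr1, Bmpr1a, Bmpr1b, Bmpr2 and Acvr2a, and the highest for Acvr1, Acvr1b, Acvrl1 and Acvr2b. Over the 49 members, wild type replicate 3 was the highest in 15 and the lowest in 16, together 63.3%, against 62.0% of all tested genes.

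**Figure D3:**
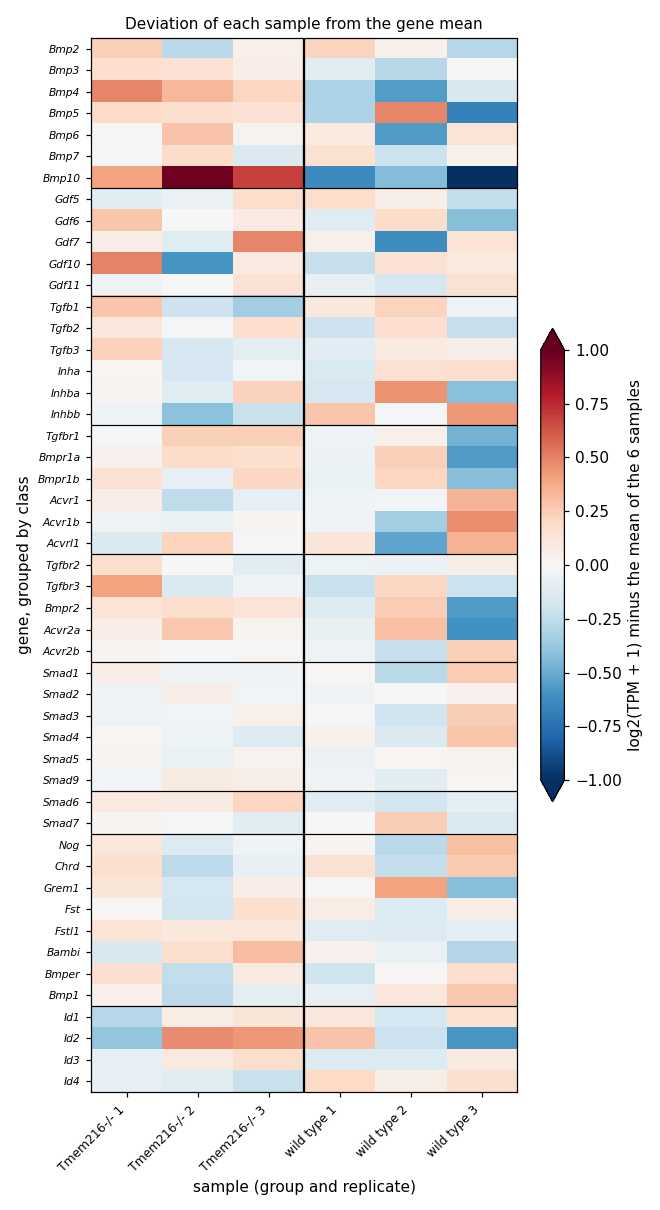
Difference of log2(TPM + 1) in each sample from the mean of the 6 samples (colour) for the 49 genes (rows, by class, in the order of ligands, receptors, Smads, antagonists and Id genes) and the samples (columns, Tmem216-/- left of wild type). In most receptor rows wild type replicate 3 has the deepest colour, and Bmp10 and Bmp4 have the largest differences by genotype.

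The Smads were the most even class. Smad4, the shared partner of all receptor Smads and the most abundant Smad, was 78.1, 74.5 and 70.5 TPM in Tmem216-/- samples, against 79.7, 69.8 and 93.7 TPM in wild type samples (log2 fold change -0.11, 95% interval -0.40 to 0.18). Smad9, a BMP Smad at a low level, was 1.96, 2.21 and 2.15 TPM in Tmem216-/- and 1.95, 1.81 and 2.04 TPM in wild type. The BMP Smads Smad1 and Smad5 averaged 29.3 and 55.4 TPM in Tmem216-/- and 29.6 and 55.4 TPM in wild type. Smad2 and Smad3, of the TGF-beta branch, averaged 43.0 and 43.1 TPM in Tmem216-/-, against 43.1 and 44.0 TPM in wild type. The 95% intervals of all 6 genes of this class lay between -0.5 and 0.5 on the log2 scale.

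Smad6, the inhibitory Smad induced by BMP signals and prominent in endothelium and heart, was 14.4, 14.3 and 15.7 TPM in Tmem216-/- samples, against 12.4, 11.7 and 12.6 TPM in wild type samples. The groups did not overlap, and the difference was small but even, with a log2 fold change of 0.26 (SE 0.11, 95% interval -0.0040 to 0.52, limma adjusted p = 0.983). Leaving out any 1 sample gave 0.22 to 0.28. The sum of 5 endothelial markers was 116, 139 and 119 TPM in Tmem216-/- and 107, 102 and 119 TPM in wild type, with 2 of the 5 above wild type in every Tmem216-/- sample, and their part in the Smad6 difference was not tested. Smad7, the inhibitory Smad of both branches, was 11.5, 11.1 and 10.4 TPM in Tmem216-/-, against 11.3, 13.5 and 10.1 TPM in wild type, and its groups overlapped (log2 fold change -0.07).

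Of the 8 antagonists and modulators, Fstl1 alone separated the groups (12.5%, against 9.57% of all tested genes). Fstl1, a secreted follistatin-like glycoprotein of mesenchyme that binds BMP4 (chromosome 16, 37776873 to 37836514), was 218, 213 and 212 TPM in Tmem216-/- samples, against 182, 180 and 185 TPM in wild type samples. Values within each group differed by a few TPM, the smallest relative spread in wild type of any member, and the group means were 214 ± 2.91 TPM in Tmem216-/- and 182 ± 2.57 TPM in wild type (SD, n = 3 each). The log2 fold change was 0.23 (SE 0.07, 95% interval 0.07 to 0.39, limma adjusted p = 0.798), and leaving out any 1 sample gave 0.22 to 0.24. Bmp1, the metalloprotease that cleaves chordin and procollagens and is not itself a ligand of this family, was 59.5, 47.8 and 53.9 TPM in Tmem216-/- and 54.1, 61.9 and 69.6 TPM in wild type (-0.20, interval -0.51 to 0.11). The secreted BMP antagonists Nog, Chrd and Grem1 had log2 fold changes of -0.04, -0.12 and 0.01, and the activin antagonist Fst -0.0050. Chrd averaged 5.46 TPM in Tmem216-/- and 6.04 TPM in wild type, and Fst 12.7 TPM in Tmem216-/- and 12.8 TPM in wild type. Nog averaged 8.05 TPM in Tmem216-/- and 8.42 TPM in wild type, and Grem1, of the limb bud, 2.80 TPM in Tmem216-/- and 2.88 TPM in wild type. The decoy receptor gene Bambi averaged 7.61 TPM in Tmem216-/- and 6.42 TPM in wild type (log2 fold change 0.21), and Bmper, a secreted chordin-like modulator, 6.95 TPM in Tmem216-/- and 6.88 TPM in wild type.

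The Id genes encode helix-loop-helix proteins that block bHLH factors, and Id1, Id2 and Id3 are widely used as readouts of BMP signalling. They did not move in a single direction. Id4, the member linked to neural progenitors (chromosome 13, 48261228 to 48266026), was 26.1, 25.5 and 23.6 TPM in Tmem216-/- samples, against 31.9, 28.9 and 31.1 TPM in wild type samples. The groups did not overlap, and the log2 fold change was -0.28 (SE 0.10, 95% interval -0.51 to -0.05, limma adjusted p = 0.983). Neural progenitor markers summed to 655 to 779 TPM in Tmem216-/- and 628 to 722 TPM in wild type, and 4 of 5 forebrain markers were below wild type in every Tmem216-/- sample; the part of these tissues in the Id4 difference was not tested. Id3, the most abundant member of the pathway, was 211, 238 and 252 TPM in Tmem216-/- and 203, 203 and 238 TPM in wild type (0.12, interval -0.13 to 0.37). Id1 averaged 134 ± 19.6 TPM in Tmem216-/- and 139 ± 17.0 TPM in wild type. Id2 varied most, from 83.5 to 153 TPM in Tmem216-/- and from 73.2 to 135 TPM in wild type, and its interval of -0.38 to 1.06 leaves a difference of either sign possible.

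**Figure D4:**
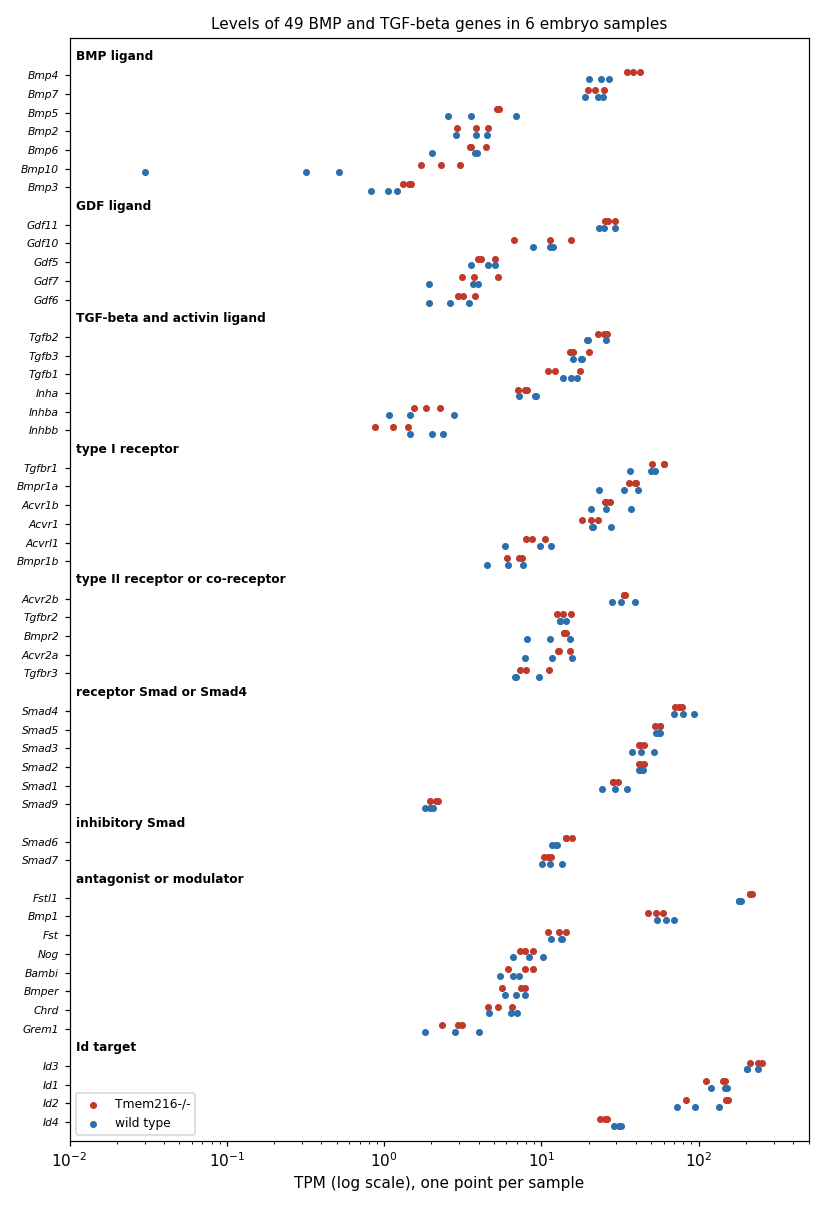
TPM (x axis, log scale) of the 49 genes in each sample, with Tmem216-/- points above wild type points in each row and genes ordered by mean level inside each class. Levels run from 1.22 TPM for Bmp3 to 224 TPM for Id3 as means of the 6 samples, and only Bmp10 shows groups far apart.

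The levels give the order of the pathway in this tissue. By the mean of the 6 samples, Id3 (224 TPM) and Fstl1 (198 TPM) were highest, followed by Id1 (136 TPM), Id2 (115 TPM) and Smad4 (77.7 TPM). The sample ranges of Id3 and Fstl1, of Id1 and Id2, and of Id2 and Smad4 overlapped. The leading ligands were Bmp4 (31.2 TPM), Gdf11 (26.6 TPM), Tgfb2 (23.1 TPM) and Bmp7 (22.2 TPM), and their sample ranges all overlapped. Bmp4 exceeded Gdf11 in each Tmem216-/- sample, while in wild type Gdf11 was the higher of the pair in all 3 samples. Bmp3, Bmp10, Inhbb, Inhba and Smad9 were lowest, at 1.22 to 2.02 TPM.

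The precision of these 3 against 3 samples limits what can be said of genes that did not pass. The 95% interval of the log2 fold change lay between -1 and 1 in 45 of the 49 genes, and between -0.5 and 0.5 in 20. The 4 whose interval reached beyond a doubling were Bmp10, Bmp4, Bmp5 and Id2. Log2 fold changes of the 49 ran from -0.46 for Inhbb to 1.37 for Bmp10, and 47 were under 0.5 in size. By their fitted sign 30 of 49 were higher, against 48.3% of all tested genes.

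**Figure D5:**
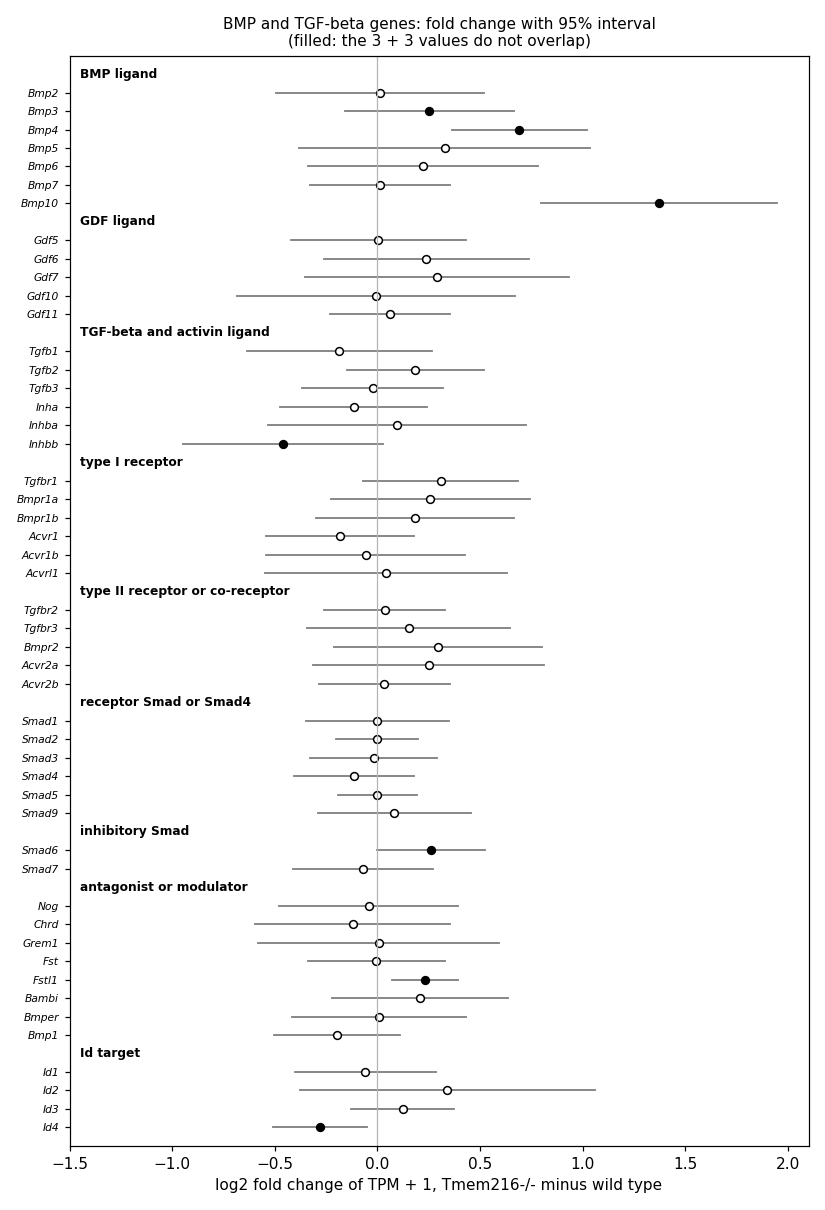
Log2 fold change of TPM + 1, Tmem216-/- minus wild type (x axis), for the 49 genes by class, with 95% intervals from limma as lines and filled points where the groups do not overlap. The intervals of Bmp4, Bmp10 and Fstl1 lie above 0 and that of Id4 below, and no gene had an adjusted p under 0.05.

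A further list of 63 genes of the pathway, from other ligands to latency proteins and targets, was read in the same way. Of the 45 that passed the filter, 0 were called, 27 were higher and 18 lower, and the median log2 fold change was 0.03. In limma 2 had an unadjusted p under 0.05 (4.44%, against 4.46% of all genes). The groups of 4 did not overlap (8.89%, against 9.57% of all genes). Ccn2, a matricellular target of TGF-beta signals, was 21.9, 21.0 and 20.2 TPM in Tmem216-/- samples, against 10.8, 13.6 and 15.9 TPM in wild type samples (0.63, SE 0.15, limma adjusted p = 0.592). Every Tmem216-/- value stood above wild type. Gdf9, the oocyte ligand, was 0.94, 0.98 and 0.69 TPM in Tmem216-/- and 1.16, 2.74 and 2.56 TPM in wild type (-0.72, adjusted p = 0.983), and passed the filter only through its wild type values. Itgb8, the integrin subunit that activates latent TGF-beta, was 6.33, 8.98 and 8.66 TPM in Tmem216-/-, against 5.15, 6.78 and 3.90 TPM in wild type (0.53). Eng, the endothelial co-receptor, was 21.5, 22.8 and 20.1 TPM in Tmem216-/-, against 17.9, 17.0 and 19.9 TPM in wild type (0.22), and its groups did not overlap by a narrow margin.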

How the data were processed

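Per the submitters' processing notes, the authors called bases with CASAVA 1.8 and used HISAT2, StringTie and RSEM with mm10, and the deposited TPM values were taken as they are. TPM keeps no read depth, so a count test could not be run. Rows carry gene symbols, of which 27 had turned into dates and were restored from the identifier; 2 further numeric columns were not used. Values were log2(TPM + 1) for genes that reached 1 TPM in 3 or more samples, and limma 3.58.1 (R 4.3.3, two-sided moderated test with a mean-variance trend) was fitted to all 16411, with Benjamini-Hochberg adjustment over all of them. The test was tested on simulated data. Tables and figures used Python 3.11.15. Coordinates and overlapping exons come from GENCODE M21, and promoter windows from RefSeq (33 of 49 genes had one). Strand use in counting is not given in the sources used here. Members and lists were chosen with earlier results of these data known. Genes given sample by sample are, in each class, those with the 2 smallest p-values and the highest mean, and those whose groups do not overlap; the others are given by mean or range. Of the other 64 pathway symbols 63 matched, and the 4 with the smallest p are named. Alternatives changed the pseudocount (0.1 or 5), the filter (none, or 5 TPM), the scaling (quantile, or median of ratios) or the fit (robust eBayes, a replicate block), or left out each sample in turn.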

Additional observations from a re-analysis of the deposited data

How the results depend on the processing

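No member was called under any of the 14 alternatives, and 26 of the 49 kept the sign of their fold change in all that tested them. Those 26 include all 7 whose groups do not overlap. For these 7 the sign was fixed in advance wherever a sample was left out or the pseudocount, filter or fit was changed. Depth is unknown for TPM, so counting error at low levels (Bmp3, Bmp10, Inhbb) cannot be given. Testing all 30598 genes above 0, limma called 0 without a filter, while 1207 reached an unadjusted p under 0.05; with each sample left out the count of called genes ran from 0 to 27. The number of members whose groups do not overlap was 4 with a filter at 5 TPM, which tests 38 members, and ran from 7 to 17 with each sample left out. Over all tested genes the share was 9.10% with that filter and ran from 14.2% to 32.8% with each sample left out. Tmem216 was at -4.31 with a pseudocount of 0.1 (adjusted p = 0.0667; 0.0199 to 0.196 over its alternatives), and at -3.55 without a filter (0.0874); with each sample left out it ran from -3.81 to -3.25. The replicate block was fitted too: same-numbered samples shared deviations with r = 0.016, -0.093 and 0.10. For samples with different numbers r ran from -0.15 to 0.14. Not every sample correlated best with its own number. No pairing by number was seen, but 3 samples per group cannot exclude one. The block gave 25 called genes, 0 called members and 2 members at an unadjusted p under 0.05, against 627 of 16411 over all genes. Scaling moved the median of all genes by 0.0083 (median of ratios) and 0.013 (quantile).

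The fold changes of 23 members changed sign under at least 1 alternative, most of them near 0. Median-of-ratios scaling moved the 5 that it turned by about the common shift given above, and the cause of the other changes was not tested. It gave 0.0023 for Gdf10, 0.0083 for Smad1, 0.0051 for Smad2, 0.0085 for Smad5 and 0.0032 for Fst. Quantile scaling gave 0.018 for Smad1, 0.015 for Smad2, 0.0084 for Smad3, 0.015 for Smad5 and 0.00088 for Fst. A pseudocount of 5 gave 0.0073 for Gdf10 and -0.0060 for Grem1, and one of 0.1 gave 0.000105 for Smad1. With each sample left out, ligands that changed sign ran from -0.13 to 0.15 (Bmp2), -0.0040 to 0.35 (Bmp6), -0.090 to 0.091 (Bmp7), -0.11 to 0.091 (Gdf5), -0.25 to 0.29 (Gdf10), -0.0072 to 0.15 (Gdf11), -0.14 to 0.054 (Tgfb3) and -0.090 to 0.34 (Inhba). Receptors ran from -0.24 to 0.16 (Acvr1b), -0.21 to 0.23 (Acvrl1), -0.038 to 0.10 (Tgfbr2), -0.011 to 0.30 (Tgfbr3) and -0.074 to 0.16 (Acvr2b). Smads ran from -0.13 to 0.13 (Smad1), -0.038 to 0.020 (Smad2), -0.12 to 0.10 (Smad3), -0.028 to 0.032 (Smad5) and -0.16 to 0.034 (Smad7). The rest ran from -0.19 to 0.098 (Nog), -0.21 to 0.21 (Grem1), -0.086 to 0.085 (Fst), -0.088 to 0.13 (Bmper) and -0.16 to 0.068 (Id1).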
